A study of Mus musculus with 12 samples.

Results

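The libraries described here are 5 of the 12 mouse RNA-seq samples of the series: 3 of untreated and 2 of stimulated splenic B cells. These cells are labelled DKO, with Hnrnpa1 and Hnrnpa2b1 deleted by Cre-loxP recombination. The libraries were chosen by label, as every numbered DKO column of the day 0 and day 2 count tables. The tables were joined on the Ensembl gene identifier. B cells were taken from spleens by depleting CD43-positive cells. The stimulated cells were then kept for 48 h in RPMI with 10% fetal bovine serum, with anti-CD40 at 1 µg/mL and anti-IgM at 10 µg/mL. The untreated cells carry the same deletions, and their RNA was taken after isolation with no culture step named. The untreated libraries nevertheless held Myc at 405.2 to 553.1 CPM and Irf4 at 559.8 to 657.5 CPM (read counts scaled to a common library size), genes that activation induces, and these levels overlapped or exceeded those of the stimulated libraries. Whether the untreated cells were at rest was not tested. WT cells, with 3 untreated and 2 stimulated libraries handled under the same labels, served to ask where the DKO response differed. They also entered the shared estimate of spread behind every DKO standard error and p-value. The labels and tables used here do not name the promoter that drives Cre, the deleted exons or the age of the mice. Nor do the labels tie each library to its own animal, and the p-values therefore rest on the spread between libraries, which may be technical. The untreated and stimulated libraries stand in separate deposited tables, so stimulation, culture and table cannot be told apart in any difference below.

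CD40 and the B cell receptor, which anti-IgM crosslinks, together mimic the help and the antigen that a B cell meets in a spleen follicle. The receptor signals through SYK, BTK and calcium, CD40 signals through TRAF adaptors to NF-kB, and the joint signal takes resting cells out of quiescence into growth, division, antigen presentation and antibody class switching. hnRNP A1 and hnRNP A2B1 bind RNA in the nucleus, where they influence splice site choice, export and stability of messages.

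Each library held between 15378747 and 21731893 counts. A total of 15006 genes passed the filter on low counts and entered 1 model, edgeR's quasi-likelihood test over the 4 groups, with Benjamini-Hochberg adjustment over all tested genes. A gene is said to have risen or fallen where its adjusted p was below 0.05. Levels are CPM, read counts scaled to a common library size with TMM factors, which compare libraries for 1 gene and not genes with each other, and differences are log2 values with their standard error (SE). Markers of the B lineage were present in every DKO library, with summed levels of 4453 to 4880 CPM untreated and 7038 to 8379 CPM stimulated. The T cell list summed to 48.5 to 83.4 and 133.7 to 190.7 CPM, nearly all from Lck, a kinase that rose by 1.27 (SE 0.22, adjusted p = 0.000774), and the defining genes Cd3d, Cd3e and Cd3g stayed at or below 0.721 CPM. Monocyte markers summed to 44.6 to 86.1 CPM untreated and 73.2 to 88.0 stimulated, dendritic cell markers to 150.8 to 178.7 and 76.6 to 95.9, stromal and endothelial markers to 26.5 to 35.6 and 49.1 to 61.7, and neutrophil, NK, erythroid and platelet markers to 21.5 CPM or less in each library. The part of such cells in the results was not tested. In bulk RNA, fewer cells of a type and less RNA per cell cannot be told apart. The stimulated DKO libraries stood further apart from each other than any other pair within a group. They differed by at least 2-fold in 139 of 9224 protein-coding genes at 5 CPM or more, against 12 to 113 genes in the other pairs. The gap went with transcript length: the median log2 ratio of library 1 to library 2 was 0.37 in the shortest quartile of genes and -0.23 in the longest. Untreated DKO library 1 had Xist at 2046 CPM while the other 4 DKO libraries had 0.441 or less, so the untreated group mixes sexes.

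Between untreated and stimulated DKO B cells 4952 of the 15006 genes changed, 33.0% of those tested, with 2425 higher (16.2%) and 2527 lower (16.8%). The rise was at least 1 on the log2 scale for 1305 genes (8.7%) and the fall was at least 1 for 1013 (6.75%), and the median over all tested genes was -0.01. Members that rose were 34 of 35 mitotic genes, 9 of 12 MHC class II genes, 10 of 17 inhibitory receptors and phosphatases and 6 of 12 immunoglobulin constant genes. Members that fell were 19 of 19 genes of the amino acid response, 16 of 20 tRNA synthetases and 14 of 30 interferon-stimulated genes. Also lower were 19 of 35 nuclear genes of the respiratory chain and 14 of 20 of the proteasome. Without stimulated library 1, 5 class II genes rose and 22 interferon-stimulated genes fell. Without stimulated library 2, 7 interferon-stimulated and 9 proteasome genes fell. The lists were chosen with earlier results of these data known, so each is described by its counts and its median beside these background shares. Without stimulated library 2, 3470 of the 4952 genes (70.1%) kept their call, and without any other DKO library 77.5% to 81.9% did. At most 16 of them changed sign.

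**Figure D1:**
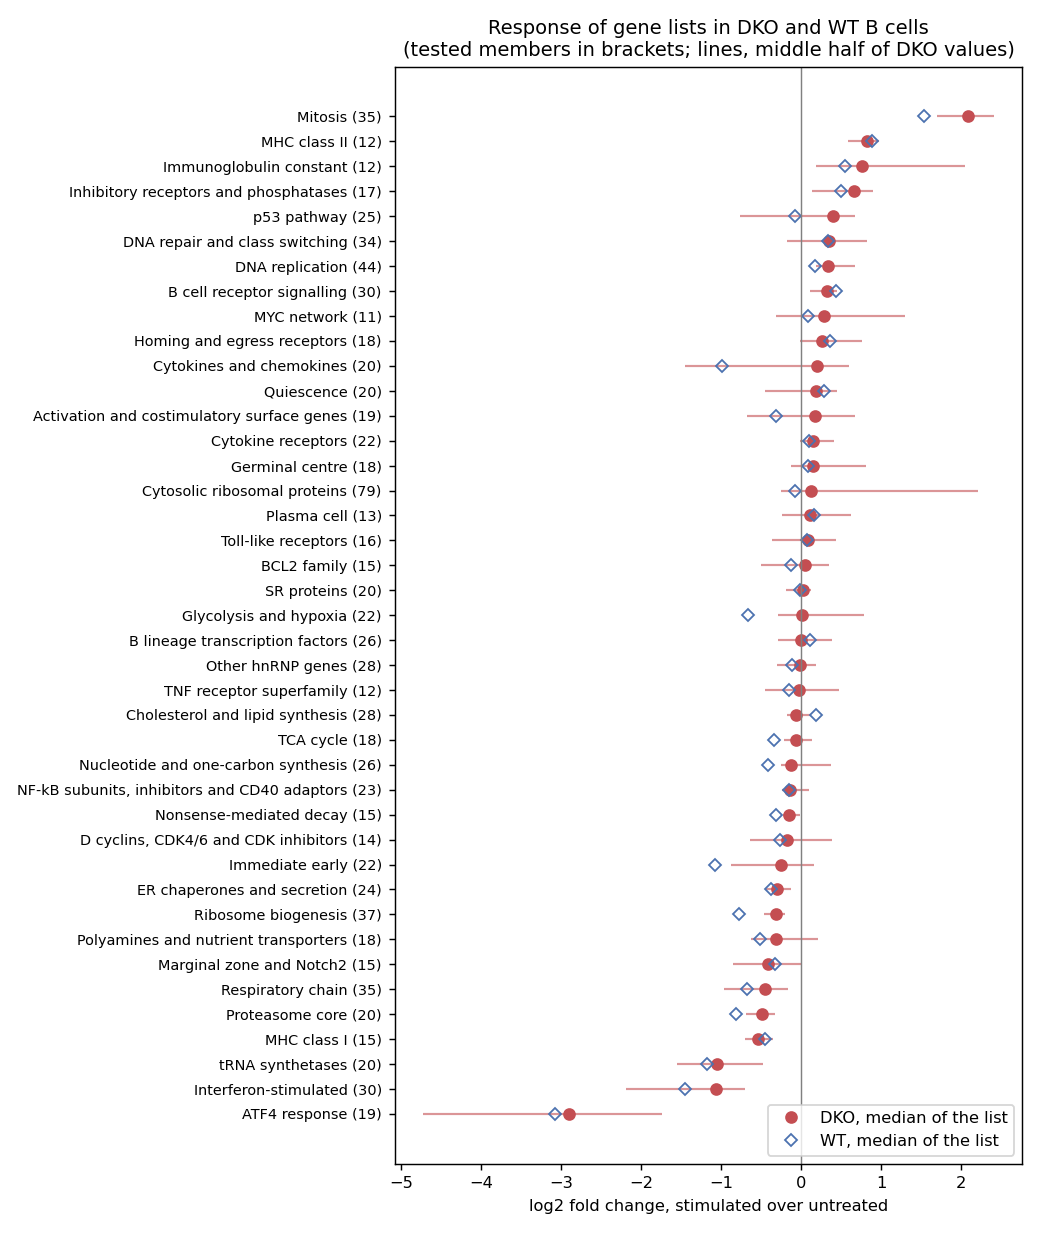
Median log2 fold change between stimulated and untreated B cells over the tested members of 41 gene lists (number of members in brackets), with filled circles for DKO, open diamonds for WT and lines from the lower to the upper quartile of the DKO values. Mitosis lies furthest to the right in DKO (2.08) and the ATF4 response furthest to the left (-2.91).

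The targeted genes were measured first. Hnrnpa1 (ENSMUSG00000046434, on the plus strand of chromosome 15, 103148859 to 103155119 in GRCm39) was at 78.3, 202.7 and 101.5 CPM in untreated DKO libraries and at 282.4 and 242.9 in stimulated ones. The groups did not overlap, and the rise was 1.04 (SE 0.28, adjusted p = 0.0128, edgeR). It was 0.94 with an adjusted p of 0.0628 without stimulated library 1. WT cells averaged 699.4 CPM untreated and 1677 CPM stimulated, a rise of 1.26, so Hnrnpa1 rose in both genotypes from a lower level in DKO. Of the Hnrnpa1 transcript sequence 48.3% is shared with annotated pseudogenes, which limits how its reads can be assigned. Hnrnpa2b1 (ENSMUSG00000004980, minus strand of chromosome 6, 51437912 to 51446874) was at 341.4, 630.4 and 396.4 CPM untreated and 369.1 and 428.2 stimulated. These ranges overlap, and the difference of -0.19 (SE 0.20, adjusted p = 0.5) did not pass the test. It turned to 0.13 (adjusted p = 0.528) without untreated library 2. WT cells averaged 1848 and 1774 CPM. With the deleted exons not named, these gene totals check the labels only in part.

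The amino acid response, driven by the transcription factor ATF4 when amino acids are short or translation initiation is held back, was lower in every tested member: 19 of 19 genes fell, with a median of -2.91. Promoters of 3 members are shown because they hold the composite C/EBP-ATF letters TGATGNAA, in capitals, within 250 bases upstream of the RefSeq start (GRCm38.p6, read along the gene). Asns lies on the minus strand at chr6:7693210-7693459, Chac1 on the plus strand at chr2:119350992-119351241, where the match is to the opposite strand, and Pycr1 on the minus strand at chr11:120643749-120643998.
Asns: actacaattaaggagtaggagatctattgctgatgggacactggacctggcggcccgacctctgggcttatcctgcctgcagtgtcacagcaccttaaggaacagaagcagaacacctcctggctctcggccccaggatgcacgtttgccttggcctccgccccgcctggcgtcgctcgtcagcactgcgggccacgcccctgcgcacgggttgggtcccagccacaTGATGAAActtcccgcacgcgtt
Chac1: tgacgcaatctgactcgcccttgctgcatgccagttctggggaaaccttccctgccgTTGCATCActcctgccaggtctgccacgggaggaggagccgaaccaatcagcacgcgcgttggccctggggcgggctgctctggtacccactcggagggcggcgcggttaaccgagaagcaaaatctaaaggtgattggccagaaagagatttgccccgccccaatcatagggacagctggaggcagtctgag
Pycr1: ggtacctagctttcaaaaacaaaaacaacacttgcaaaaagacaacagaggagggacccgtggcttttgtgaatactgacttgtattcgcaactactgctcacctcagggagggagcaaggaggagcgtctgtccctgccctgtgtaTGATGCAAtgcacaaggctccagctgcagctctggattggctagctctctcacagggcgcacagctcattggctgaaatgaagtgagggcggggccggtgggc
The letters TGATGNAA, on either strand, were found in these 250 upstream bases in 5 of the 17 matched promoters of this list (29.4%) and in 3.5% of all 26815 RefSeq promoters. With the 50 bases after the start included, the counts were 6 (35.3%) and 4.1%. This motif was chosen after the values were seen, and a match is a description and not a binding site.

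Asns, which makes asparagine, was at 362.7, 319.3 and 301.0 CPM in untreated and at 24.4 and 20.5 CPM in stimulated DKO libraries, a 14.6-fold lower level (log2 -3.87, SE 0.16, adjusted p = 5.38e-09). Chac1, which degrades glutathione, was at 52.7, 44.2 and 39.6 CPM against 1.18 and 0.789, a log2 difference of -5.50 (SE 0.33, adjusted p = 1.31e-07). In neither gene did the groups come close to overlapping. Atf4 itself fell from 840.4, 755.4 and 673.8 CPM to 265.1 and 197.3 (log2 -1.71, SE 0.15, adjusted p = 6.1e-06). Its dependent genes for serine and proline synthesis, Psat1 (-1.61), Phgdh (-1.17, with 73.1% of its sequence shared with pseudogenes) and Pycr1 (-4.36), were lower too. Trib3, a pseudokinase that restrains ATF4, was at 94.2, 55.6 and 51.4 CPM against 1.80 and 1.94 (-5.16). Nupr1 had 2 counts in all in the stimulated DKO libraries, a level 48.8 times lower with a 95% counting interval of 13.2 to 407 that covers counting error only.

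**Figure D2:**
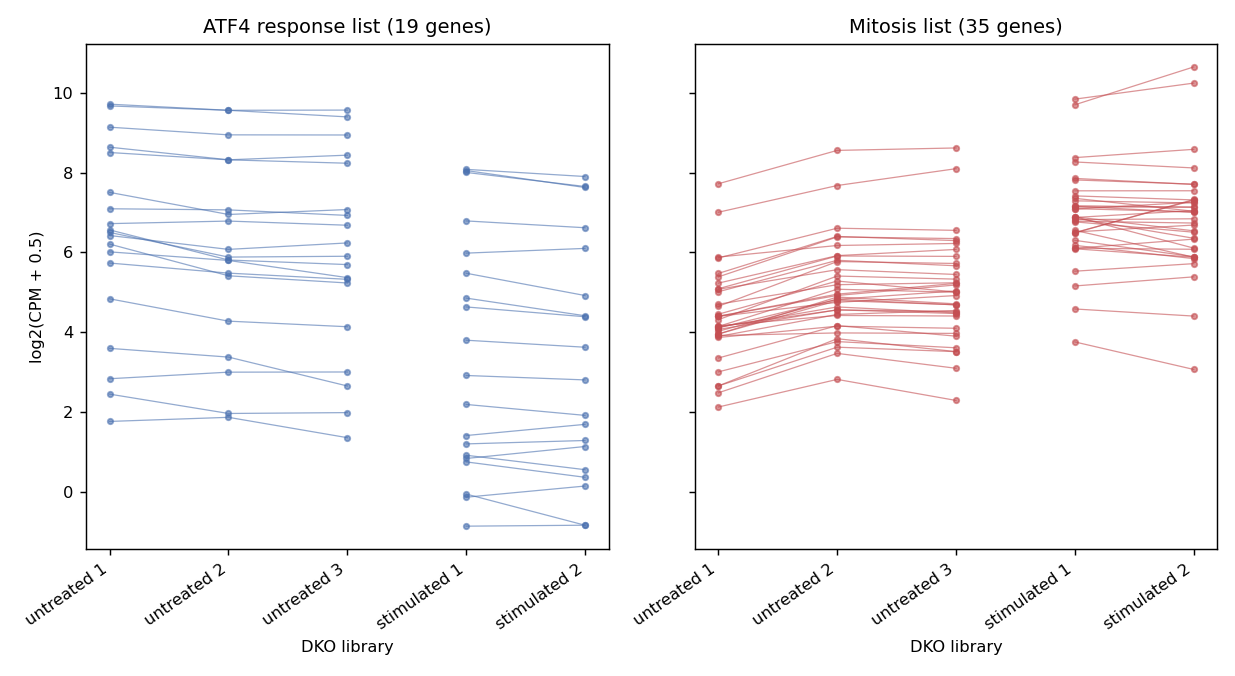
Level in each of the 5 DKO libraries, as log2(CPM + 0.5), of the 19 tested members of the ATF4 response (left) and the 35 of the mitosis list (right), where each line joins the libraries of 1 group for 1 gene. Nearly every ATF4 line is lower in the stimulated libraries and nearly every mitosis line is higher, as for Asns (20.5 to 24.4 CPM stimulated) and Ccnb2 (58.9 to 78.5 CPM stimulated).

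Some of the steepest falls were of list members: the cationic amino acid transporter Slc7a3 (-5.54) and cystathionine gamma-lyase Cth (-4.45). Aldh1l2, a mitochondrial folate enzyme outside the list, went from 59.0, 38.2 and 37.0 CPM to 0.257 and 0.728 (log2 -6.53, adjusted p = 2.49e-07). The glycine transporter Slc6a9, also outside it, fell by 5.70. Of 26 nucleotide and one-carbon synthesis genes 6 rose and 4 fell, with a median of -0.13, and 7 fell without stimulated library 1 and 2 without stimulated library 2. Its mitochondrial one-carbon enzymes Mthfd2 (-1.66) and Shmt2 (-1.46) fell. Of 18 genes for polyamines and nutrient transporters 3 rose and 7 fell, with a median of -0.31, and none rose among those sharing less than 20% of their sequence with pseudogenes. The leucine transporter Slc7a5 fell by 1.79. Of 20 cytosolic tRNA synthetases, which load amino acids onto tRNA, 16 fell and 1 rose, with a median of -1.05. No synthetase rose without stimulated library 1 or any 1 untreated library, and 2 rose without stimulated library 2. Cars, for cysteine, was at 293.7, 258.5 and 250.4 CPM untreated and 69.5 and 66.9 stimulated (-1.97, SE 0.11, adjusted p = 9.67e-08), and Nars, for asparagine, fell by 1.79. The WT medians were -3.08 for the ATF4 list and -1.18 for the synthetases, and no member of either list passed the interaction test described below.

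Mitotic genes, which build the spindle and divide the chromosomes, were higher. Of 35 genes, 34 rose and none fell, with a median of 2.08, and 1 fell without stimulated library 1. Promoters of 3 of them are shown because they hold the letters TTTGAA, in capitals. These are the core letters of the cell cycle homology region bound by MuvB complexes, but a match is a description and not a binding site. In Ccnb2 the marked match lies at -167 from the start, and another match lies outside the bases shown. Ccnb2 lies on the minus strand at chr9:70421555-70421804, Cdc20 on the minus strand at chr4:118437344-118437593 and Espl1 on the plus strand at chr15:102296043-102296292 (RefSeq, GRCm38.p6).
Ccnb2: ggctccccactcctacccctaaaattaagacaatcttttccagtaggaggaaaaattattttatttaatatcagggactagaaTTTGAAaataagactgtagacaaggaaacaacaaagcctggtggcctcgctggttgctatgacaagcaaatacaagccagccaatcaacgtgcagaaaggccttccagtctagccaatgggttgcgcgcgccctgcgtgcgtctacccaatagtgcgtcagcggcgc
Cdc20: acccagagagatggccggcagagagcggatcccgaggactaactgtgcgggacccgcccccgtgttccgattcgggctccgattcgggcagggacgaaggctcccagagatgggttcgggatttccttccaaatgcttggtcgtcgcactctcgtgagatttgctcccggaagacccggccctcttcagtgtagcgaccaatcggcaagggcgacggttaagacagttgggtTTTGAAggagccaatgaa
Espl1: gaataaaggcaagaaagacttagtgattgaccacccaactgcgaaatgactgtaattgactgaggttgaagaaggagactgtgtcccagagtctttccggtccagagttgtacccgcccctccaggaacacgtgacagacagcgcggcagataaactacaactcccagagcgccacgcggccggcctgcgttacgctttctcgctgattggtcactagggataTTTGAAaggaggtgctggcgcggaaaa
The letters TTTGAA occurred on either strand of the 250 upstream bases in 10 of 29 matched mitosis promoters (34.5%) and in 16.3% of all promoters. With the 50 bases after the start included, 22 mitosis promoters (75.9%) and 18.1% of all promoters held them. For DNA replication genes the E2F letters TTTNNCGC were found upstream in 10 of 35 promoters (28.6%) against 4.4% of all, and in 15 (42.9%) against 5.3% with those 50 bases. For ribosome biogenesis genes the MYC letters CACGTG were found upstream in 1 of 31 promoters (3.2%) against 5.9% of all, and in 8 (25.8%) against 7.1% with those bases.

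Ccnb2, a cyclin of mitotic entry, was at 5.09, 10.6 and 8.06 CPM in untreated and at 78.5 and 58.9 CPM in stimulated DKO libraries, a log2 rise of 3.12 (SE 0.31, adjusted p = 1.39e-05). Mki67, the proliferation antigen Ki-67, went from 128.2, 204.2 and 273.8 CPM to 831.8 and 1605 (2.59, SE 0.32, adjusted p = 6.88e-05). Each gene was higher in both stimulated libraries than in all 3 untreated ones. Cdc20, an activator of the anaphase-promoting complex, rose by 2.33, the polo kinase Plk1 by 2.82, the kinesin Kif11 by 2.38, separase Espl1 by 2.03 and topoisomerase Top2a by 1.71. The exception was Pttg1, the securin gene, at 14.6, 15.3 and 15.2 CPM against 13.0 and 7.89 (-0.52, adjusted p = 0.0831). Untreated library 1 was the lowest of the untreated libraries for the genes given here, for example Kif11 at 41.4 CPM against 83.4 and 80.9. In WT cells 34 of the 35 also rose, with a median of 1.53, and none of the 35 passed the interaction test. The interaction was nevertheless positive in all 35, with a median of 0.51, against 55.3% positive among all tested genes. Genes of a list are not independent, so this count is a description.

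Genes of DNA replication moved less. Of 44 members 17 rose and 1 fell, with a median of 0.34, and 11 rose and 3 fell without stimulated library 1. Rrm2, the regulated subunit of ribonucleotide reductase, rose by 1.5, the transcription factor E2f2 by 1.55 and the polymerase subunit Pole by 1.08. The replicative helicase subunit Mcm2 was at 237.1, 278.7 and 288.9 CPM against 268.1 and 214.5, with overlapping groups (-0.15, adjusted p = 0.398). Among D cyclins, their kinases and their inhibitors 3 of 14 rose and 4 fell. These counts were 5 and 4 without stimulated library 1, 3 and 1 without stimulated library 2, and 3 and 2 without untreated library 1 or 2. Ccnd2, the D cyclin of B cell activation, was at 745.8, 697.9 and 775 CPM untreated and 417.4 and 489.7 CPM stimulated (-0.71, SE 0.15, adjusted p = 0.0034). The INK4 inhibitors Cdkn2c and Cdkn2d rose by 1.35 and 1.83. Myc, at 553.1, 425 and 405.2 CPM untreated and 424.3 and 321.6 stimulated, did not pass the test (-0.31, adjusted p = 0.205). The MYC antagonists Mxd3 (3.82) and Mxd4 (1.5) rose. Over the whole MYC network list 4 of 11 rose and 1 fell, with a median of 0.29. In the ribosome biogenesis list, a set of nucleolar genes many of which MYC drives, 12 of 37 fell and none rose, with a median of -0.31, and 9 fell and 1 rose without stimulated library 2. Npm3, a nucleolar chaperone, fell by 1.06 and Nop14 fell by 0.78.

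Genes that receptor signals induce early were mostly not higher in the stimulated libraries. Irf4, a factor of activated B cells, was at 657.5, 559.8 and 614.9 CPM untreated and 467.3 and 502.4 stimulated (-0.33, adjusted p = 0.0879). Of 22 immediate early genes 9 fell and 1 rose, with a median of -0.25, and 7 fell and 4 rose without stimulated library 2. Egr1 fell from 44.6, 45.7 and 39.8 CPM to 16.3 and 16 (-1.42, SE 0.18, adjusted p = 0.000104), and the stress factor Atf3 fell by 3.43. Dusp6, a phosphatase that restrains ERK, was the 1 that rose (1.16). Of 23 NF-kB subunits, inhibitors and CD40 adaptors 2 rose and 2 fell, and the median was -0.14. Without stimulated library 1, 3 rose and 7 fell, without untreated library 1 or 2, 1 rose and 2 fell, and without untreated library 3, 1 rose and 1 fell. The subunit gene Nfkb1 was at 509.6 to 601.6 CPM untreated and at 643 and 605.4 stimulated (0.16, adjusted p = 0.347). Among activation and costimulatory surface genes 6 of 19 rose and 5 fell: Cd44, an adhesion receptor, rose by 0.99, and Cd69 (-1.29) and Cd200 (-1.46) fell.

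Antigen presentation genes split by class. Of 12 MHC class II genes 9 rose and none fell, with a median of 0.82, and 5 rose without stimulated library 1. H2-Aa, the alpha chain of I-A, was at 415.9, 576.3 and 499.5 CPM untreated and 1136 and 908.5 stimulated (1.04, SE 0.15, adjusted p = 0.000234). Ciita, the transactivator of the class II genes, rose from 54.9, 79.1 and 78.5 CPM to 158.8 and 154.8 (1.15, adjusted p = 6.81e-05). The stimulated values were above all untreated values in both. Of 15 MHC class I genes 7 fell and none rose, with a median of -0.54, but only 2 fell without stimulated library 2 and 3 without untreated library 2. B2m, the light chain shared by class I molecules, was at 1736, 1996 and 1619 CPM against 1043 and 590.6 (-1.13, SE 0.20, adjusted p = 0.00118).

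Interferon-stimulated genes, the antiviral set that type I interferon induces, fell in 14 of 30 cases and none rose, with a median of -1.07. Isg15, a ubiquitin-like antiviral protein, was at 29.5, 49.1 and 41.2 CPM untreated and 5.25 and 0.911 stimulated, a log2 difference of -3.65 (SE 0.51, adjusted p = 0.000188). Ifit1 and Rsad2 fell by 3.59 and 3.10. Stimulated library 1 lay above library 2 in this group: Isg15 was 5.25 against 0.911 CPM there. The count of falls was 22 without library 1 and 7 without library 2.

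Receptors that restrain B cells were mostly higher or not called. Of 17 inhibitory receptors and phosphatases 10 rose and none fell, with a median of 0.66, and 9 rose and 1 fell without stimulated library 1. Siglecg, which damps the B cell receptor, was at 46.6, 59.1 and 53 CPM untreated and 209.1 and 172.0 stimulated (1.85, SE 0.17, adjusted p = 5.47e-06). Cd5 rose from 0.903, 0.378 and 1.07 CPM to 5.87 and 4.31 (2.70), and Cd22 and the phosphatase gene Inpp5d rose by 0.85 and 0.66. In B cell receptor signalling 10 of 30 rose and 1 fell (median 0.32). Ms4a1, which encodes CD20, rose by 1.06, and the kinase gene Fyn fell by 1.17. Fcer2a, which encodes CD23, rose by 1.21, within a list of homing and egress receptors where 4 of 18 rose and 2 fell. Those counts were 5 and 1 without stimulated library 1 and 7 and 2 without stimulated library 2, and also 7 and 2 with DESeq2 or upper-quartile scaling.

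**Figure D3:**
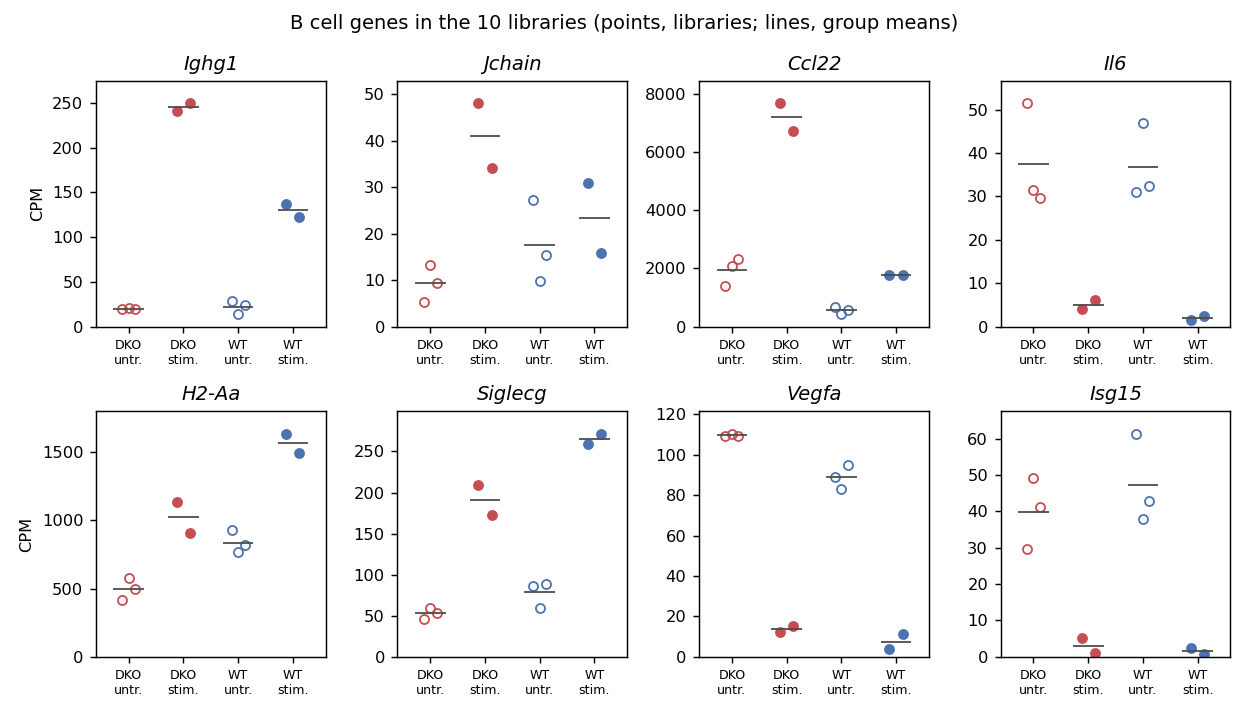
CPM on linear axes from 0 for 8 genes in the 10 libraries, with points for libraries, horizontal lines for group means, red for DKO, blue for WT, open for untreated and filled for stimulated. Ighg1, Jchain, Ccl22, H2-Aa and Siglecg are higher in both stimulated DKO libraries than in the 3 untreated ones, and Il6, Vegfa and Isg15 are lower.

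Among immunoglobulin constant genes 6 of 12 rose and 2 fell, with a median of 0.76. The rises were 4 without untreated library 1 and 5 without untreated library 2. Without stimulated library 2, 8 rose and none fell, and 1 fell without untreated library 1 or 2. Ighg1, the constant region of IgG1, was at 19.5, 20.6 and 19.7 CPM in untreated and at 241.1 and 249.7 in stimulated DKO libraries, a 12.3-fold rise (log2 3.62, SE 0.20, adjusted p = 6.91e-08). Igha went from 6.45, 7.31 and 5.33 CPM to 142.9 and 64.9 (4.03, SE 0.70, adjusted p = 0.000951), with library 1 above library 2. Ighm, the IgM constant region, rose by 0.85 and Ighd was at 0.19 (adjusted p = 0.254). Reads in these genes count unrearranged, germline and switched transcripts alike. In the list of DNA repair and class switching genes 15 of 34 rose and 3 fell, against 10 and 6 without stimulated library 2 and 12 and 1 without untreated library 1. The Fanconi gene Fancd2 rose by 1.41 and the checkpoint mediator Clspn by 1.47.

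Of 13 plasma cell genes 3 rose and 2 fell. Jchain, which joins IgM and IgA polymers, went from 5.29, 13.2 and 9.46 CPM to 48.1 and 34.2 (2.14, SE 0.41, adjusted p = 0.00185), and Sdc1, which encodes CD138, rose by 1.86. Xbp1, the factor of the secretory programme, fell by 0.98, and Prdm1, which encodes Blimp-1, was at 3.53 to 6.83 CPM untreated and 3.76 and 6.62 stimulated (0.07, adjusted p = 0.902). Germinal centre genes gave 7 of 18 higher and 3 lower, with 4 higher without stimulated library 2 and likewise without untreated library 1. Plxnb2 rose by 1.5 and the repressor Bcl6 fell by 0.87. Marginal zone and Notch2 genes gave 4 of 15 lower and none higher, led by Asb2 (-2.58).

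Secreted factors moved in both directions, with 4 of 20 cytokines and chemokines higher and 6 lower, and 2 and 7 higher without stimulated library 1 and 2. Ccl22, a chemokine that draws CCR4-bearing T cells, was at 1391, 2073 and 2320 CPM untreated and 7663 and 6715 stimulated (1.9, SE 0.21, adjusted p = 2.93e-05). Its mean deposited FPKM, a per-length unit, was 2890 stimulated and 812.0 untreated. Il6 fell from 51.5, 31.4 and 29.6 CPM to 3.97 and 6.01 (-2.92, SE 0.32, adjusted p = 2.52e-05), and Ccl5 fell by 4.11. For both the stimulated libraries were below every untreated library. The interleukin-6 receptor gene Il6ra rose by 1.16, one of 6 of 22 cytokine receptors that rose, with 1 that fell. The rises and falls were 3 and 2 without untreated library 1, 4 and 0 without untreated library 3, 6 and 0 without stimulated library 1, and 5 and 2 without stimulated library 2.

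Messages for nuclear genes of the respiratory chain and for the proteasome were mostly lower or not called. Reads of mitochondrial genome genes went the other way, from 2.21% to 2.37% of untreated to 4.69% and 3.75% of stimulated DKO libraries. Of 35 nuclear genes of the respiratory chain 19 fell and 1 rose, with a median of -0.45, and 15 fell and 2 rose without stimulated library 2. Uqcrq, a subunit of complex III, was at 227.8, 200.2 and 175.1 CPM untreated and 54.2 and 31.9 stimulated (-2.22, SE 0.20, adjusted p = 4.85e-06), and Ndufa2 of complex I fell by 1.71. The electron carrier gene Cycs rose by 2.33. Of 20 proteasome genes 14 fell and none rose (median -0.49), and 9 fell without stimulated library 2. The median exonic lengths of these lists were 1972 and 2335 bases. Over all protein-coding genes tested, 25.4% fell in the shortest quartile by length (up to 2824 bases) against 9.84% in the longest, with medians of -0.15 and 0.03, and the part of transcript length in these falls was not tested. Of 22 genes of glycolysis and hypoxia 5 rose and 5 fell, with a median of 0.01. Without stimulated library 1 or untreated library 1, 3 rose, and without genes sharing sequence with pseudogenes 1 rose and 4 fell. Vegfa, the vascular growth factor, was at 109.4, 110.5 and 109.3 CPM untreated and 12.2 and 15.4 stimulated (-3.0, SE 0.31, adjusted p = 1.61e-05), and hexokinase 2, Hk2, fell by 0.94. Of 18 genes of the TCA cycle 1 rose, Idh2 (0.78), and 3 fell. The falls were 5 without stimulated library 1, 1 without untreated library 1 or 3 and 0 without untreated library 2, and 3 rose and 0 fell without stimulated library 2.

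The largest single rises included genes with no sequence shared with a pseudogene. Galnt2, a glycosyltransferase that starts mucin-type glycans, was at 0.709, 0.757 and 0.666 CPM untreated and 28.1 and 24.8 stimulated, 36.9-fold higher (log2 5.2, SE 0.28, adjusted p = 4.7e-08). Its WT rise was 4.97. Cib2, a calcium-binding protein, rose by 4.36, Dok4, an adaptor, by 3.77, Adipoq, the adipokine adiponectin, by 3.76 and the helicase Pif1 by 3.37. Ppia, cyclophilin A, was at 66.3, 57.0 and 52.4 CPM against 1764 and 1311 (4.71, adjusted p = 1.57e-09), and Sumo2 rose by 4.64. For these, 30.6% and 29.1% of the transcript sequence is shared with pseudogenes, and for the glycolytic gene Gapdh (2.41) 84.1%. Reads counted in pseudogenes made up 2.53% to 2.69% of untreated and 1.07% to 1.2% of stimulated DKO libraries. Genes sharing at least 20% of their sequence rose in 30.0% of 580 cases against 16% of the other 11232. The cytosolic ribosomal protein genes gave 37 higher and 13 lower of 79, 32 and 30 without stimulated library 1, and 2 higher and 4 lower among the 11 that share less than 20%. The part of read assignment in these rises was not tested.

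Other steep falls were of several kinds. Cox6a2, a muscle-type subunit of cytochrome oxidase, had 44.0, 17.9 and 13.5 CPM untreated and 2 counts in all in the stimulated DKO libraries, 452 times lower with a 95% counting interval of 125 to 3740. Cyb5r2 had 1 count, 330 times lower with an interval of 59.0 to 13100. Both intervals cover counting error only and not the spread between libraries. Cebpb, a factor of inflammation and a member of the amino acid response list, fell by 5.01. The Notch ligand Dll4 (-4.67) and the cholesterol acyltransferase Soat2 (-5.27) fell as well. Mir142b and Snord104, small RNA genes, had no counts in any stimulated library of either genotype. In DKO this was at least 254-fold and 107-fold lower at a floor of 3 counts over the group. Mir142hg, the long host of Mir142b, has an exonic length that differs by over 10% between the tables. It rose by 3.07 in CPM while its mean deposited FPKM was 102.2 untreated and 128.4 stimulated. The part of gene annotation and read assignment in these zero counts was not tested.

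The interaction of genotype and stimulation was tested to ask where the DKO response differed from that of WT cells. In WT cells 6097 genes changed (40.6%), 2672 higher (17.8%) and 3425 lower (22.8%). Of the 4952 genes called in DKO, 96.2% had the same sign in WT, and of the genes not called 70.2% had. Both responses cross the same pair of tables, and the correlation across genes of 0.81 is a description, since genes are not independent replicates. The interaction passed the test for 21 genes (0.14%), 20 with a higher DKO response (0.133%) and 1 with a lower one (0.00666%), and 1802 genes had an unadjusted p below 0.05. Without stimulated DKO library 2 the counts were 677 and 567, without stimulated DKO library 1 they were 3 and 0, and without the unnumbered stimulated WT library 1 and 0; over the other left-out libraries 5 to 50 were higher. The median interaction over all tested genes was 0.05.

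**Figure D4:**
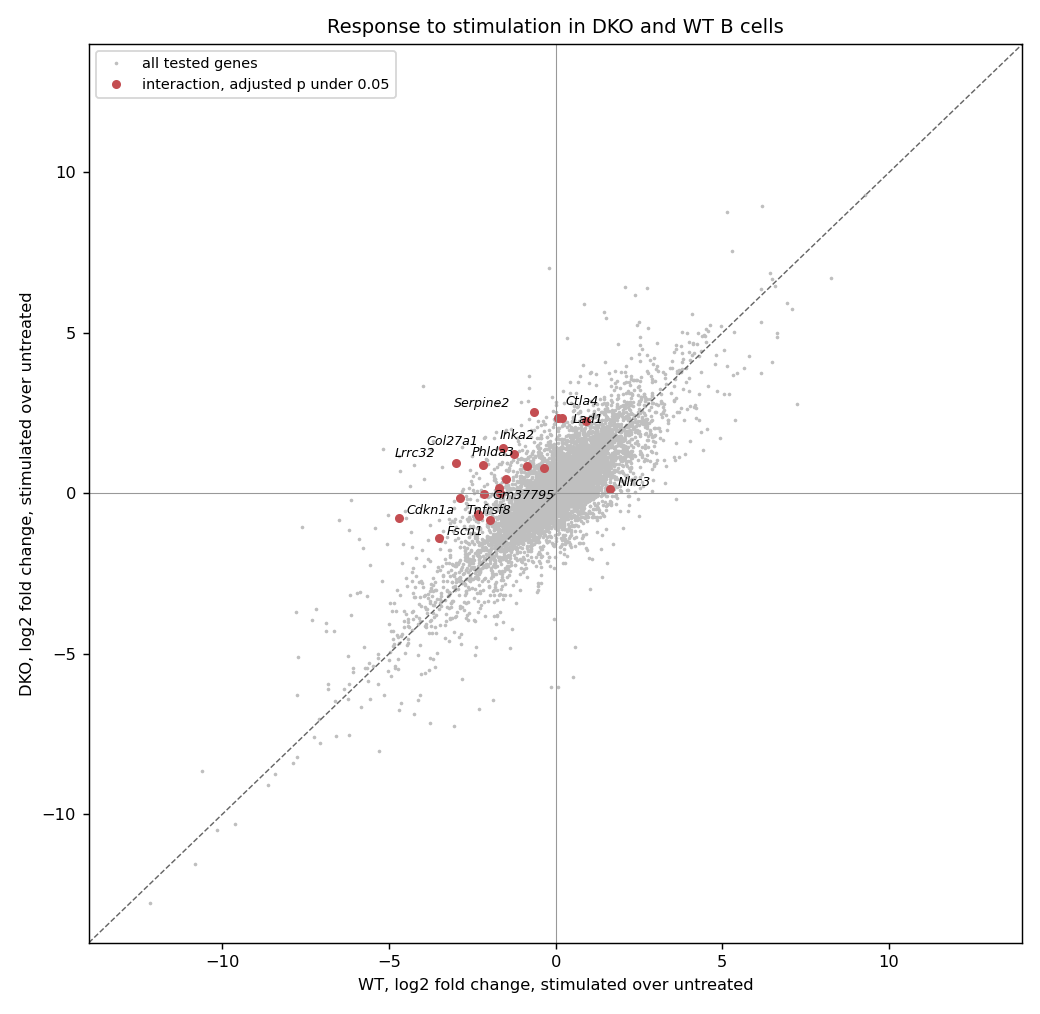
Log2 difference between stimulated and untreated B cells in WT (horizontal axis) and DKO (vertical axis), 1 point per tested gene, with the 21 genes that pass the interaction test marked. Of these, 20 lie above the diagonal and Nlrc3 lies below it.

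Cdkn1a, which encodes the CDK inhibitor p21, was the 1 gene called in each of the 10 fits that left out 1 library. It was at 49.4, 38.5 and 31.1 CPM in untreated DKO libraries and 29.2 and 17.4 in stimulated ones (-0.76, SE 0.31). In WT it was at 44.7, 53.9 and 43.6 CPM against 1.44 and 2.21, a log2 difference of -4.70. The groups of both genotypes were separate, and the interaction was 3.93 (adjusted p = 0.0025, edgeR). The DKO fall alone had an adjusted p of 0.0253 and was lost without stimulated library 2, untreated library 1 or untreated library 2, where it reached at most 0.186. Tnfrsf8, which encodes CD30, was at 27.7, 19 and 19.9 CPM against 21.2 and 19.1 in DKO, with overlapping groups, and at 14.3 to 17.0 CPM against 2.61 and 1.62 in WT (interaction 2.74, adjusted p = 0.00488). Adm, the peptide adrenomedullin, was at 20.9 to 25.8 CPM and then 33.9 and 28.2 in DKO, and fell by 1.5 in WT (interaction 1.96, adjusted p = 0.00488). Ctla4, an inhibitory receptor best known on T cells, was at 2.19, 2.58 and 2.2 CPM untreated and 10.8 and 13.1 stimulated in DKO (2.35), against a WT difference of 0.08. Its interaction of 2.27 (adjusted p = 0.0282) was called in 3 of the 10 fits that left out a library.

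**Figure D5:**
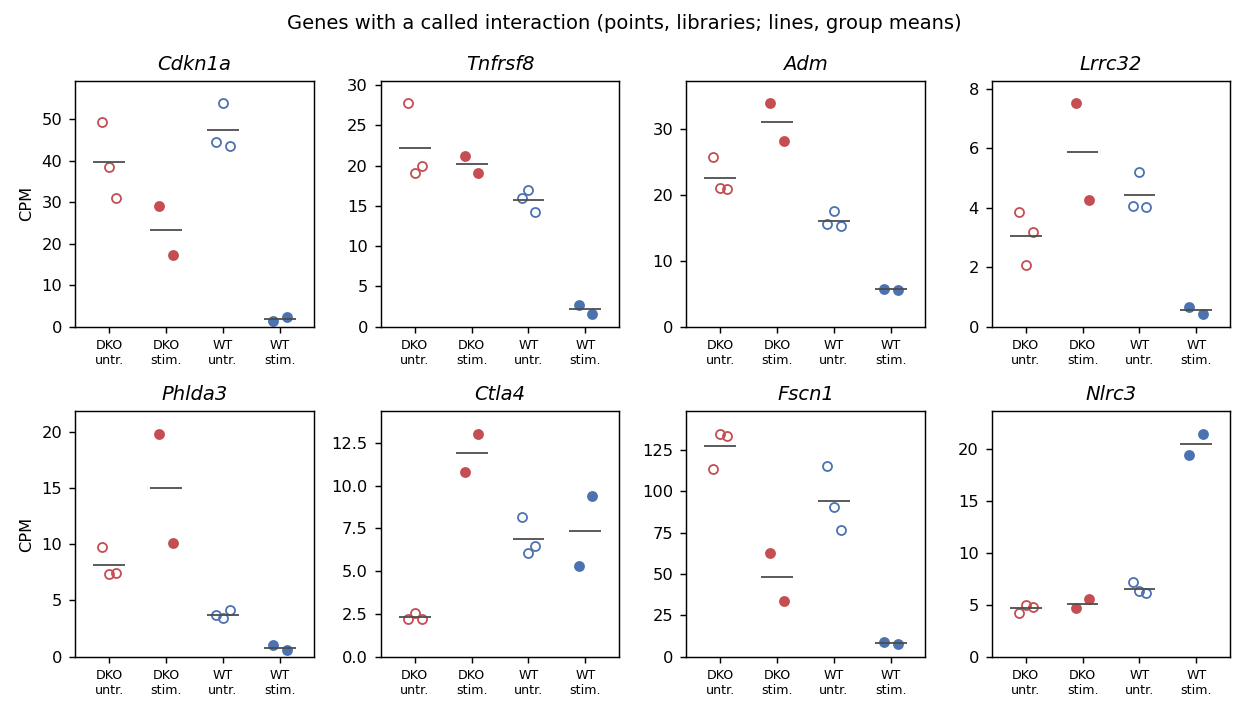
CPM on linear axes from 0 in the 10 libraries for 8 of the genes whose response differed by genotype, with points for libraries, horizontal lines for group means, red for DKO and blue for WT. Cdkn1a lies between 17.4 and 49.4 CPM in all DKO libraries and at 1.44 and 2.21 CPM in stimulated WT libraries, and Nlrc3 is at 19.4 and 21.5 CPM in stimulated WT libraries and at most at 7.19 CPM in the others.

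Genes of the p53 pathway, which include Cdkn1a, gave 11 of 25 higher and 7 lower in DKO, with a median of 0.40, and 6 higher and 10 lower in WT. Ephx1, an epoxide hydrolase, rose by 1.49, Trp53inp1 by 1.52 and Psrc1 by 1.96, and the death effector Bax fell by 0.79. Cdkn1a and Phlda3, an AKT inhibitor, were the 2 members that passed the interaction test. Among 15 genes of the BCL2 family 4 rose and 4 fell. The counts were 4 and 1 without stimulated library 2, 3 and 2, 4 and 2, and 2 and 4 without untreated library 1, 2 and 3, and 2 and 4 with the replicate number as a block. The death genes Bcl2l11 and Bmf rose by 0.81 and 1.29, and Bcl2, the survival gene, was at 0.05 (adjusted p = 0.863).

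Of 28 other hnRNP genes 4 rose and 4 fell, against 3 and 2 without untreated library 1 or 2, and 2 and 3 without genes sharing sequence with pseudogenes. Hnrnpa3, a close relative of the deleted genes, was at 60.2, 64.0 and 53.8 CPM untreated and 174.1 and 205.5 stimulated (1.68, SE 0.12, adjusted p = 5.46e-07), with a WT rise of 0.95, and 20.9% of its sequence is shared with pseudogenes. Hnrnpul1, which shares 2.2%, rose by 0.58, and Taf15 fell by 1.02.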

How the data were processed

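RNA-seq of B cells was deposited as gene tables, 1 for untreated and 1 for stimulated libraries. Per the submitters' processing notes, reads went through FastQC 0.10.1, cutadapt 1.9.1, HISAT2 2.2.1 and HTSeq 0.6.1 with GRCm39; their order and settings are not stated there. The authors deposited raw read counts and FPKM per library. Counts were used in all tests, and FPKM only for levels per length. The tables share 55349 gene identifiers, and exonic length differs by over 10% between them for 889.

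Counts of 10 WT and DKO libraries were fitted together in edgeR 4.0.16 (R 4.3.3), 1 mean per group, with TMM scaling, filterByExpr (minimum count 10, minimum total 15), 6 residual degrees of freedom and Benjamini-Hochberg adjustment at 0.05. The method was tested on simulated data that took their means and spread from these libraries. In each draw 200 of the 15006 genes were changed, all in the stimulated DKO libraries. There 3.92% to 7.01% of calls were false. Planted log2 changes of 1 were recovered in 63.5% to 65.4% of cases and changes of 2 in 82.8% to 90.4%. The real comparison called 4952 genes. The length-linked gap between the stimulated DKO libraries and the separate deposited tables were not simulated. These shares therefore need not hold for the reported calls. Totals were 15378747 to 21731893 counts per library. The additional WT libraries were left out, being outside the comparison, and a WT stimulated column whose number matches no label was used as an unnumbered replicate of its group, and its FPKM, 1 column, was not used. Libraries of 1 group differed by more than sampling noise. The labelled library kit is not stated to keep strand, so overlapping and antisense genes cannot be told apart.

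The members and the 50 gene lists were chosen with earlier results of these data known. Genes named are Hnrnpa1 and Hnrnpa2b1, the 15 steepest rises and 15 steepest falls at 5 CPM or more (leaving out unnamed genes, pseudogenes, ribosomal protein genes, immunoglobulin segments and genes whose length differs between tables), the 4 list members with the smallest p and the first 2 of each list, the 10 largest interaction terms in each direction and the 5 highest-level genes. The steepest rises and falls came only from called genes whose DKO groups did not overlap, so their separation was fixed in advance. Members named outside the naming rule to fill a role (such as Kif11, Espl1, Irf4, Cd22 and Bcl2l11) were chosen after their values were seen. Sequence shared with pseudogenes is the share of a gene's 31-base words, from GENCODE M21. Promoters are RefSeq windows (GRCm38.p6), 250 bases before and 50 after the start, 26815 in number after 1 per symbol; the bases before the start were searched alone and with the 50 after. Alternatives were RLE and upper-quartile scaling, other filters, DESeq2 1.42.0, the replicate number as a block, leaving out each library, the 5 DKO libraries alone and genes of equal length in both tables. Some genes that the naming rule selects are not reported here.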

Additional observations from a re-analysis of the deposited data

Results flagged for a closer look

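For 21 genes the difference between stimulated and untreated cells was itself different between DKO and WT by the interaction term of the edgeR fit (Benjamini-Hochberg adjusted p at or below 0.034). Of these, 20 had a higher DKO response. The values are log2 differences of the responses: Lrrc32, a TGF-beta docking receptor, 3.94, Cdkn1a 3.93, the protease inhibitor Serpine2 3.19, Phlda3 3.07, the collagen Col27a1 2.99, Tnfrsf8 2.74, Inka2 2.48, Ctla4 2.27, Lad1 2.16, Gm37795 2.14, the actin bundler Fscn1 2.09, Adm 1.96, the tubulin Tubb6 1.87, Ncs1 1.73, the phosphatase Alpl 1.69, Glipr1 1.69, Gadd45b 1.59, the ligand Wnt10b 1.33, the kinase Pim3 1.15 and the mitochondrial enzyme Idh2 1.12. Nlrc3, an inhibitory NLR protein, was the 1 with a lower DKO response, -1.51.

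The patterns behind these values were of several kinds. Wnt10b rose in both genotypes, from 14.7 to 20.1 CPM to 83.7 and 83.3 in DKO and from 12.1 to 15.8 CPM to 27.1 and 26.1 in WT. Serpine2 rose by 2.52 in DKO and was 0.54 to 1.07 CPM untreated and 0.41 and 0.593 CPM stimulated in WT. Tubb6 was at 16.3 to 17.4 CPM untreated and 21.3 and 16.4 stimulated in DKO, and fell by 1.70 in WT. Nlrc3 was at 4.25 to 4.98 CPM untreated and 4.74 and 5.52 stimulated in DKO, and rose by 1.64 in WT.

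Each of the 21 kept its sign under all 21 alternatives that test an interaction. Cdkn1a was called in 10 of the 10 fits that left out a library, and Tnfrsf8 and Adm in 9, where the highest adjusted p was 0.0515 for each. Col27a1 was called in 8, Lrrc32 and Tubb6 in 7, and the others in 3 to 5.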

How the results depend on the processing

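In 22 alternatives no sign of a named called gene turned: of 4837 values, 4529 kept their side of the threshold and 308 lost it. All 5 fits that left out 1 DKO library kept the call of 181 of 222 named called genes. Many named genes were chosen for a small p or a large change in these same data, which favours keeping the call. Over all 4952 called genes, leaving out untreated DKO library 1 kept 77.5% of calls, and 16 genes changed sign. A left-out stimulated library leaves an arm of 1, which is then assumed to vary like the other groups. With the 5 DKO libraries alone, 1814 genes were higher and 2106 lower, of 14046 tested. With a tested minimum log2 change of 1, 448 genes were higher and 442 lower in DKO. Leaving out a library gave 1894 to 2420 higher and 1964 to 2792 lower.

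The interaction counts moved most. Higher and lower calls were 122 and 52 with DESeq2, 354 and 137 without a filter, 47 and 15 without the 2 libraries that had Xist reads (chosen after seeing the data) and 1 and 0 with a tested minimum of 1. There were 3 lower calls with RLE scaling, 3 with genes of equal length, 3 without genes sharing sequence with pseudogenes (chosen after seeing the data), 3 without ribosomal, pseudogene and immunoglobulin genes, and 4 with upper-quartile scaling. Leaving out 1 library gave 1 to 677 higher and 0 to 567 lower calls, with 1 higher without the unnumbered WT stimulated library and the highest counts without stimulated DKO library 2. The cause was not tested.

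Hnrnpa1 in DKO was 1.04 with an adjusted p of 1.0 against a tested minimum of 1, and ranged from 0.79 to 1.56 over the fits without 1 library; Hnrnpa2b1 turned from -0.19 to 0.13 without untreated DKO library 2. With the replicate number as a block, 2054 genes were higher and 2201 lower in DKO, and 9 interaction calls were higher. Same-numbered DKO libraries correlated at -0.061 and -0.209 in their deviations from the group mean. With 2 stimulated libraries these deviations mirror each other, so the values cannot tell whether a number marks the same animal. No pairing was used in the main fit.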
